A study of Mus musculus with 4 samples.

Results

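The DNA replication licensing genes are a set of 10 genes whose products load the replicative helicase onto DNA, or supply the clamp and the nucleotides that replication uses. They are Mcm2, Mcm3, Mcm4, Mcm5, Mcm6, Mcm7, Cdc6, Cdt1, Pcna and Rrm2, and they were matched to probe sets by symbol. They were proposed with earlier results of these data known, so their counts beside those of all genes are descriptions. All 10 were found, among 18193 genes with a probe set that lists 1 gene, and 27 of 34945 such probe sets belong to them. A gene's brightest probe set, by mean signal, stood for it. All 10 passed the filter on low values (mean signal above 95.0), which left 12187 genes for the tests. Of the 27 probe sets, 24 passed it.

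The labels describe marrow-derived cells that had entered the liver of C57BL/6 mice, and they also name liver as the tissue. All mice carried fibrosis from 30 injections of the hepatotoxin carbon tetrachloride at 1 ml/kg. In the 7 days leading up to the last of them, 2 samples were treated with recombinant human granulocyte colony-stimulating factor (G-CSF, which stimulates the marrow to make neutrophils) at 100 µg/kg. The 2 control samples received vehicle instead, 0.1% mouse serum albumin in buffered saline, and are called PBS as in their titles. No gate, marker of marrow origin, age or number of animals is given in the sources used here, so p-values measure the spread between these samples, which may be technical. Each sample was hybridised to 1 Affymetrix mouse array, and its values are MAS5 signals, a linear brightness per probe set scaled to the same mean on each array. The question was which transcripts differed with G-CSF, here asked against each PBS array in turn, because the PBS arrays differed widely from each other. A difference below is the mean log2(signal + 23) of the G-CSF arrays less that of PBS, given with the SE of the fit (its standard error), and the added 23 understates changes of weak genes. Levels of different genes are not compared, since each probe set has its own sensitivity.

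In G1 phase the origin recognition complex, Cdc6 and Cdt1 load rings of the Mcm2 to Mcm7 proteins onto DNA as inactive double hexamers, and this step licenses an origin to fire in the next S phase. The rings later become the core of the helicase that opens the fork, PCNA clamps the polymerases to DNA, and ribonucleotide reductase makes the deoxynucleotides. Most of these genes are transcribed in late G1 under E2F transcription factors, so their transcripts mark dividing cells, such as marrow precursors, thymocytes and regenerating liver cells. Resting hepatocytes and mature neutrophils express them weakly.

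The promoters are shown first as background, because E2F sites are the best known element that licensing genes share. Whether such sites bear on the values of these arrays was not tested. RefSeq promoters (GRCm38.p6, 250 bases before to 50 after the start) were matched by symbol for 9 of the 10 genes. No entry was matched for Mcm4. The starts used for Mcm5, Cdc6 and both Mcm7 promoters lie within the span of the gene and not at its end. The Cdc6 window (98907901 to 98908200) lies wholly inside the gene, which begins at 98907709. The letters TTTCCCGC, TTTCGCGC, TTTGCCGC or TTTGGCGC, on either strand, occurred in the promoters of 6 of the 9 genes (Mcm3, Mcm5, Mcm6, Mcm7, Cdc6 and Cdt1), against 2.6% of 27025 genes in the table. A shorter form, the same letters without their first T and so contained in the longer one, added Rrm2 and made 7 of 9, against 10.9%. In the lines below capitals mark the shorter letters on either strand, and adjoining sites merge into 1 run of capitals. Sequences are read 5′ to 3′ on the gene's strand, and positions count from 1 at the start with −1 just before it. For sites past the start, only the sites and the bases between them are given.
Mcm3 (chr1:20820264-20820293, minus strand, positions 20 to 49): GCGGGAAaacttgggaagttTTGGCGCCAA
Mcm5 (chr8:75109325-75109386, plus strand): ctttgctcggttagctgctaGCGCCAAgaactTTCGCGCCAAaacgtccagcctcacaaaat
Mcm6 (chr1:128359722-128359834, minus strand): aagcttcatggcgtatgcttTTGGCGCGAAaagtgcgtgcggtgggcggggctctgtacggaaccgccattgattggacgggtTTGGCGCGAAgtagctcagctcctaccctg
Mcm7 (chr5:138172022-138172068, minus strand): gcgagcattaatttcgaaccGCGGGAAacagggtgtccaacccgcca
Cdc6 (chr11:98907993-98908039, plus strand): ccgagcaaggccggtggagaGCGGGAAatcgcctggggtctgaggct
Cdt1 (chr8:122568033-122568054, plus strand, positions 19 to 40): GCGGGAActacctttTTGGCGC
Rrm2 (chr12:24708004-24708045, plus strand): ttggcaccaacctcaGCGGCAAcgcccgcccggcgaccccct

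The shorter sites of Mcm5 lie between −164 and −143, and those of Mcm6 at −109 to −100 and −46 to −37, where 2 overlapping matches on opposite strands form each run. Mcm6 holds a further short match at 25 to 31. Mcm7 has 2 promoters in the table: the one shown holds a second run at 18 to 27, and the other holds 1 short match at −113 to −107. Mcm2 and Pcna held neither form in this window. The CCAAT box, the letters CCAAT on either strand, was in 7 of the 9 genes (all but Cdc6 and Cdt1), against 41.1% of genes. The letters TTTGAA of the cell cycle homology region were in 1 of 9, that of Mcm2, against 20.2%, and the TATA letters TATAAA in 0 of 9, against 15.7%. A match of letters describes the sequence and does not show that a factor binds there.

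PBS replicate 1 was also set apart by genes outside the licensing set. Rag1 and Dntt, genes of developing lymphocytes, had signals of 6016 and 20056 there and at most 2.20 and 94.0 on the other arrays. Whether that sample holds thymus or other tissue beside what its label names was not tested, and this bears on each value of PBS replicate 1 and each contrast with it. Results without it are those against PBS replicate 2 alone.

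Licensing transcripts were highest in PBS replicate 1 and separated the PBS arrays far more than they separated G-CSF from PBS. All 10 genes had their highest signal in PBS replicate 1, at 3.23 to 7.07 times the next array. For 33.7% of all tested genes that array was the highest. For 9 of the 10 (all but Mcm2 by its representing probe set) PBS replicate 2 was the lowest array and both G-CSF arrays lay between the PBS arrays. Only 16.5% of all tested genes had that arrangement. The median over the members was 9.31-fold between PBS replicate 1 and PBS replicate 2, against 0.895-fold over all genes. The median difference with G-CSF was therefore −2.41 against PBS replicate 1 alone and 0.95 against PBS replicate 2 alone, while the medians over all genes were 0.19 and 0.00066.

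**Figure D1:**
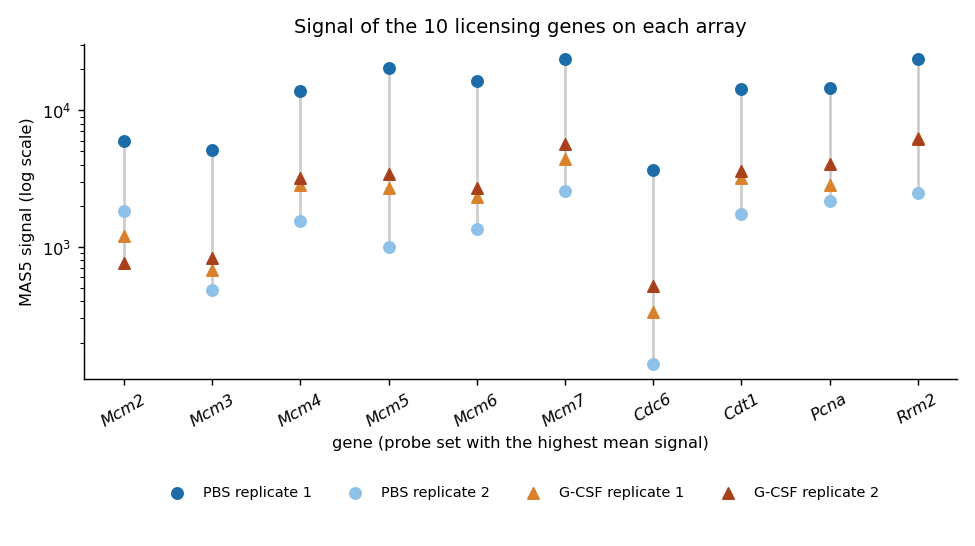
MAS5 signal (log axis) of the 10 licensing genes, by the probe set that represents each gene; blue circles are the PBS arrays, orange and red triangles the G-CSF arrays, and the grey bar spans the 4 values. PBS replicate 1 is highest for all 10 genes, and PBS replicate 2 is lowest for all but Mcm2.

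With all 4 arrays in 1 fit, 0 of the 10 members were called by limma at an adjusted p below 0.05, and 0% of the 12187 genes were called. The unadjusted p was below 0.05 for 1 member and for 429 of all genes. The member was Mcm2 (unadjusted p = 0.0403, limma), and the adjusted p-values of the members were 0.988 to 0.991. The median difference of the members was −0.68, beside 0.067 over all genes, and all 10 differences were below 0. That sign came from PBS replicate 1: without it 9 of the 10 differences were above 0, as were 6101 of the 12187 over all genes. The median SD of the members between replicates was 2.28 in the PBS pair and 0.22 in the G-CSF pair, against 0.49 and 0.15 over all genes. For a single value, permuting 2 samples against 2 exactly gives a two-sided p of 0.333 at the least.

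PBS replicate 1 was at least 4-fold above every other array, on the log2(signal + 23) scale, for 6 of the 10 members (Mcm3, Mcm4, Mcm5, Mcm6, Mcm7 and Cdc6), against 1.98% of all genes. Against PBS replicate 1 alone, all 10 members were called lower with G-CSF (limma, adjusted p = 0.000263 to 0.00136), where 15.9% of all genes were called lower. Against PBS replicate 2 alone, 4 of the 10 were called higher with G-CSF (Mcm4, Mcm5, Cdt1 and Rrm2), where 2.78% of all genes were called higher. Each of these fits has a lone PBS array, takes the spread from the G-CSF pair and assumes that the lone array varies like it. For the members, that spread is the median SD of 0.22 given above, far under the spread of the PBS pair, so these p-values do not cover the difference between PBS samples. The calls against PBS replicate 2 also depended on the settings. The number of members called was 0 with no filter, without a trend in the variance or with specific probe sets only, 1 with the mean of all probe sets, and at most 5, whereas all members measured were called against PBS replicate 1 in each of these settings.

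Mcm5 forms, with Mcm2, the gate through which DNA enters the ring, and among the probe sets that represent the helicase subunits its PBS arrays were the farthest apart, 20.1-fold. The Mcm5 signal was 20255 and 1007 in the PBS pair against 2697 and 3433 in the G-CSF pair, each pair given here and below in replicate order. PBS replicate 1 was thus 5.90 times the next array, while both G-CSF arrays were above PBS replicate 2. The difference was −2.73 ± 0.20 against PBS replicate 1 and 1.57 ± 0.22 against PBS replicate 2 (SE, limma adjusted p = 0.000371 and 0.0168). A second Mcm5 probe set ran the same way at 1210 and 97.3 in the PBS pair against 158 and 227 in the G-CSF pair, where the PBS replicate 2 value is near the background of that array (94.6). Mcm5 lies on chromosome 8 (75109468 to 75128439 in GRCm38.p6).

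Mcm4 and Mcm7 are, with Mcm6, the subunits that form the catalytic core of the helicase. The Mcm4 signal was 13941 and 1537 in the PBS pair against 2847 and 3188 in the G-CSF pair. Its G-CSF values were close together and above PBS replicate 2 (0.96 ± 0.19, limma adjusted p = 0.0450), and its other probe set gave 0.83 against the same array. Mcm7 had 23614 and 2552 in the PBS pair against 4435 and 5694 in the G-CSF pair. The Mcm7 difference from PBS replicate 2, 0.97 ± 0.21, missed the threshold (limma adjusted p = 0.0572). All 4 Mcm7 probe sets had PBS replicate 1 highest and PBS replicate 2 lowest, with differences from PBS replicate 2 of 0.66 to 0.98.

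Mcm6 and Mcm3 did not pass against PBS replicate 2. Mcm6 had signals of 16469 and 1357 in the PBS pair against 2311 and 2710 in the G-CSF pair, and its difference from PBS replicate 2 was 0.87 ± 0.20 (limma adjusted p = 0.0691). By another Mcm6 probe set the PBS arrays were 14260 and 648 and the G-CSF arrays 1034 and 1531. There the PBS arrays were 22.0-fold apart and PBS replicate 1 was 9.31 times the next array, the widest such gap of the 24 member probe sets above the filter. Mcm3, which pairs with Mcm5 in the ring, had 5152 and 481 in the PBS pair against 681 and 831 in the G-CSF pair. Its difference from PBS replicate 2 was 0.62 ± 0.25 (limma adjusted p = 0.261), the smallest of the subunits higher than that array. Its 5 probe sets all kept the order of the arrays, and the weakest, at 300 in PBS replicate 1 and 110 to 133 elsewhere, had the smallest gaps.

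Mcm2 was the exception, and its 2 probe sets disagreed. Mcm2 is the subunit that also chaperones histones and is a main target of the kinase that fires origins. The representing probe set, whose name ends in _s_at, gave 5949 and 1840 in the PBS pair against 1209 and 770 in the G-CSF pair, so both G-CSF arrays were below both PBS arrays. How many of all genes separate the groups in this way was not counted. The Mcm2 difference over all 4 arrays was −1.76 ± 0.64 (limma adjusted p = 0.988). The other probe set gave 3093 and 221 in the PBS pair against 452 and 517 in the G-CSF pair, the order seen in the other members. Against PBS replicate 2 the probe sets thus pointed opposite ways, at −0.91 and 1.05, while against PBS replicate 1 they were alike at −2.60 and −2.62. That ending marks a probe set that can match more than 1 transcript, although the platform table lists only Mcm2 for it. The ending does not set Mcm2 apart, since the probe sets that represent Mcm3 and Mcm7 share it and kept the common order. Those of Mcm4, Mcm5, Mcm6 and Rrm2 end in _x_at and those of Cdc6 and Cdt1 in _a_at. These endings too were left out of the setting with specific probe sets only.

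The loading factors followed the helicase. Cdc6, the ATPase that brings Cdt1 and the rings to the origin, had signals of 3661 and 140 in the PBS pair against 334 and 518 in the G-CSF pair. This was the widest gap between the PBS arrays of any member, 26.2-fold, and the G-CSF arrays also stood apart from each other by 0.60 on the log2 scale. The Cdc6 difference from PBS replicate 2, 1.43 ± 0.35, did not pass (limma adjusted p = 0.0820). Cdt1, the chaperone of the rings, had 14407 and 1758 in the PBS pair against 3187 and 3597 in the G-CSF pair. Its difference from PBS replicate 2 was 0.94 ± 0.19 (limma adjusted p = 0.0471), and a second Cdt1 probe set gave 0.77. When every probe set was tested as a row of its own, over 19947 rows, neither Mcm4 nor Cdt1 passed against PBS replicate 2 (limma adjusted p = 0.0620 and 0.0651).

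Pcna and Rrm2 act after licensing. Pcna, the sliding clamp, had signals of 14533 and 2163 in the PBS pair against 2830 and 4029 in the G-CSF pair. Among the members whose PBS replicate 2 value was the lowest, it had the narrowest gap between the PBS arrays, 6.72-fold. The Pcna difference from PBS replicate 2 was 0.64 ± 0.24 and did not pass (limma adjusted p = 0.240). Rrm2, the S phase subunit of ribonucleotide reductase, had 23657 and 2484 in the PBS pair against 6280 and 6155 in the G-CSF pair, so the G-CSF arrays were almost equal. It had the smallest adjusted p of the members against PBS replicate 2 (1.32 ± 0.17, limma adjusted p = 0.0126). A second Rrm2 probe set gave 1834 and 107 in the PBS pair against 613 and 812 in the G-CSF pair, a mean 6.65 times that of PBS replicate 2, while the remaining one gave a factor of 1.95. This second probe set was the only one of the 24 with a difference above 0 over all 4 arrays (0.57 ± 1.22, limma adjusted p = 0.984).

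**Figure D2:**
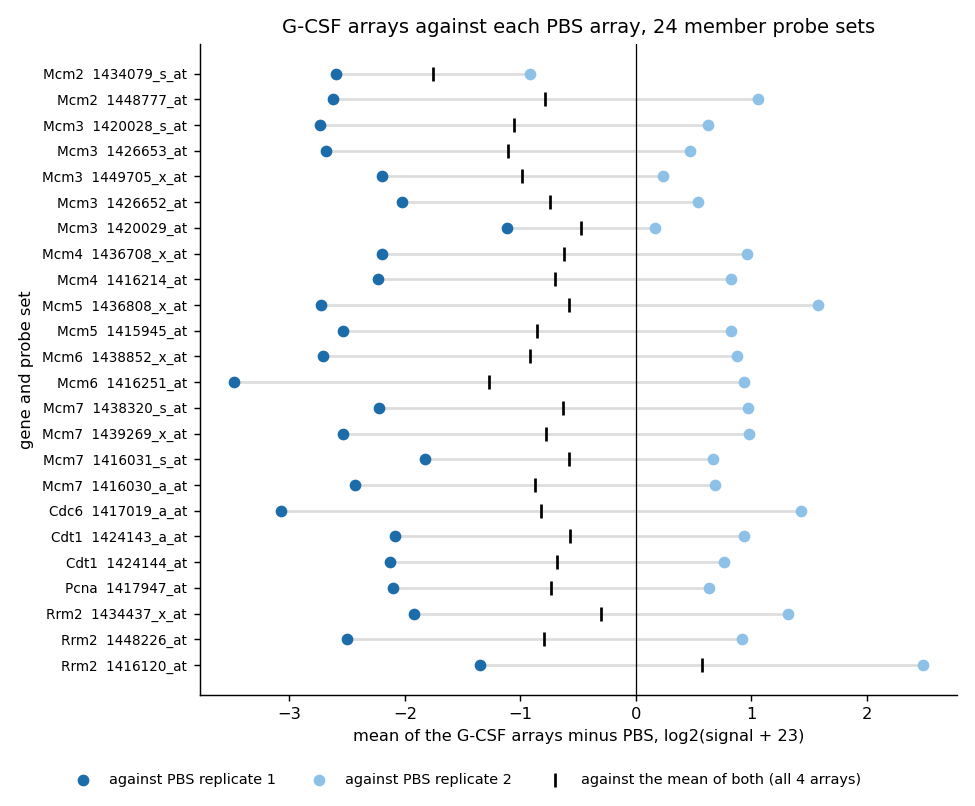
Difference of the mean of the G-CSF arrays from PBS replicate 1 (dark blue), from PBS replicate 2 (light blue) and from the mean of both (black tick), on the log2(signal + 23) scale, for the 24 member probe sets above the filter. All dark blue points lie below 0, and all light blue points but 1, a probe set of Mcm2, lie above 0.

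Over the 24 probe sets above the filter, PBS replicate 1 was highest in 24 and PBS replicate 2 lowest in 23. The ratio of PBS replicate 1 to the next array was 2.25 to 9.31, with a median of 4.36. The ratio of the G-CSF mean to PBS replicate 2 was 0.538 to 6.65, with a median of 1.89. The full order PBS replicate 2, G-CSF replicate 1, G-CSF replicate 2, PBS replicate 1 was found in 21 of the probe sets and in 8 of the 10 genes, against 9.49% of all genes. The 3 probe sets below the filter, 1 each of Mcm5, Mcm6 and Cdt1, had mean signals of 91.1, 35.4 and 6.04. The Mcm6 and Cdt1 ones did not exceed the background of any array, and the Mcm5 one did so on 1 array. Background here is the highest signal of 27 bacterial control probe sets, at 63.0 to 106 per array.

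The arrays differed in ways that bear on these values. PBS replicate 1 correlated with the other arrays at 0.813 to 0.844 over all tested genes (Pearson, across genes, which are not independent), and the G-CSF arrays with each other at 0.974. For Gapdh, the 3′ control probe set over the 5′ one, a sign of RNA quality, gave 15.7 and 14.8 in the PBS pair against 20.2 and 19.1 in the G-CSF pair. For Actb the same ratio gave 11.2 and 9.88 in the PBS pair against 12.6 and 13.7 in the G-CSF pair. Both ratios were higher in the G-CSF arrays, and their part in any difference between the arrays was not tested. Scaling did not decide the direction: with quantile normalization the member medians were −2.40 and 0.95 against PBS replicates 1 and 2, and with median centring −2.49 and 0.92.

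Markers of T cells and thymocytes set PBS replicate 1 apart in the same direction. Of 14 measured genes of the T cell and thymocyte list, 12 were more than 2-fold above all other arrays there. The summed signal of the 14 was 52466 and 17529 in the PBS pair against 14021 and 7758 in the G-CSF pair, and without Cd1d1 it was 46889 and 2374 in the PBS pair against 3630 and 1955 in the G-CSF pair. Rag1, the recombinase of developing lymphocytes, reached 6016 in PBS replicate 1, against 1.61 to 2.20 elsewhere, below the background of those arrays. Dntt, which adds bases at recombining receptor genes, had 20056 against 17.2 to 94.0. Cd1d1, which is not restricted to T cells, had 5577 and 15154 in the PBS pair against 10390 and 5804 in the G-CSF pair. Cd8a, also of this list, was picked after its values were seen. It had 1362 and 1359 in the PBS pair against 2249 and 962 in the G-CSF pair. Thus Cd8a did not set apart PBS replicate 1. In the stem and progenitor list, 1 of 8 genes was more than 2-fold above there. This was Myb, a factor of dividing precursors, with 20021 and 46.5 in the PBS pair against 935 and 1144 in the G-CSF pair. The probe sets that represent Myb, Dntt and Cd8a end in _x_at, and no other probe set of these genes is given here. The PBS replicate 2 value of Myb lay below the background of that array. Most of the summed signal of that list in PBS replicate 1 was Myb: with it the sums were 21835 and 3183 in the PBS pair against 5296 and 5366 in the G-CSF pair. Without Myb they were 1814 and 3136 in the PBS pair against 4361 and 4221 in the G-CSF pair, and PBS replicate 1 was the lowest array for each of the other 7 genes. In a bulk sample, fewer cells of a type cannot be told apart from less RNA per cell, and the part of these cells in the licensing values was not tested.

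Markers of granulocyte precursors differed with the treatment instead. All 10 genes of that list were called higher with G-CSF against each PBS array alone, where 22.6% of all genes were called higher against PBS replicate 1 and 2.78% against PBS replicate 2. Over all 4 arrays 0 of the 10 were called (limma), while all 10 had an unadjusted p below 0.05. Their summed signal was 6219 and 2065 in the PBS pair against 157895 and 141079 in the G-CSF pair. Camp, Ngp and Chil3, granule proteins and a chitinase-like protein of these cells, are the 3 genes of the list with the highest mean signal, by which they are named here, and had 14983 to 51269 on the G-CSF arrays and 200 to 3479 on the PBS arrays. The mature neutrophil list, 8 genes measured, summed to 21457 and 7779 in the PBS pair against 149778 and 126948 in the G-CSF pair. S100a8, a calgranulin, had 16542 and 5588 in the PBS pair against 63074 and 56036 in the G-CSF pair. The part of granulocyte precursors in the difference from PBS replicate 2 was not tested.

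Other lists gave smaller contrasts. The labelled tissue was evident on all arrays, since all 9 hepatocyte markers were above background on each, with summed signals of 173514 and 297157 in the PBS pair against 265731 and 260117 in the G-CSF pair. Alb, albumin, had 43301 to 52315. Kupffer cell and macrophage markers summed to 13693 and 38595 in the PBS pair against 27439 and 23686 in the G-CSF pair, and Marco and Timd4 were at background on all arrays. Both lists were thus lowest in PBS replicate 1, where the licensing genes were highest. The B cell list (8 measured) was lowest there too, at 1543 against 2637 to 4010. Erythroblast markers summed to 3874 and 2810 in the PBS pair against 2633 and 2414 in the G-CSF pair, and without Tfrc, the transferrin receptor, to 617 and 900.0 in the PBS pair against 810.3 and 687 in the G-CSF pair, with Ermap, Hba-a1 and Slc4a1 at background on all arrays.

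**Figure D3:**
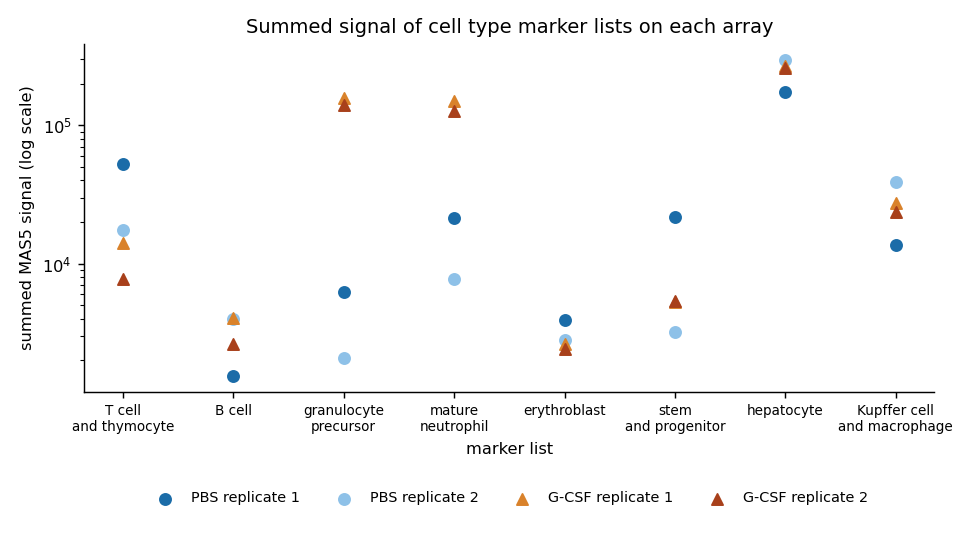
Summed MAS5 signal (log axis) of the measured genes of 8 marker lists on each array; symbols as in the plot of member signals. The T cell and thymocyte sum is highest in PBS replicate 1, as are the stem and progenitor sum through Myb alone and the erythroblast sum through Tfrc alone, granulocyte sums are highest in both G-CSF arrays, and hepatocyte and macrophage sums are lowest in PBS replicate 1.

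Other replication genes were examined as lists by step of the process. Of 105 genes outside mitosis, 100 were tested, and 0 were called over all 4 arrays in either direction. The unadjusted p was below 0.05 for 2 of them (limma), E2f7 and E2f6. Their median difference was −1.19 against PBS replicate 1 and 0.43 against PBS replicate 2. The corresponding medians of the members were −2.41 and 0.95, and this contrast between lists was not tested. Against PBS replicate 1, 64 of the 100 were called lower and 5 higher with G-CSF, where 15.9% and 22.6% of all genes were. The G-CSF arrays lay between the PBS arrays for 62, against 16.5% of all genes.

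The origin recognition complex marks the sites where the rings are loaded. Of its 6 genes tested, 4 were called lower against PBS replicate 1 and 0 were called against PBS replicate 2, with medians of −1.29 and 0.18. Orc1, the subunit best known for cell cycle control, had signals of 414 and 55.8 in the PBS pair against 131 and 107 in the G-CSF pair. Its PBS replicate 2 value lay below the background of that array. Orc6 had 1255 and 225 in the PBS pair against 208 and 324 in the G-CSF pair, so its G-CSF values lay on either side of PBS replicate 2. Orc2 behaved likewise, at 1149 and 306 in the PBS pair against 270 and 352 in the G-CSF pair, and Orc5 had 824 and 501 in the PBS pair against 336 and 516 in the G-CSF pair.

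Inhibitors and turnover factors of loading had medians of −0.66 and 0.35 over 9 genes, with 4 called lower against PBS replicate 1 and 0 called against PBS replicate 2. Dtl, the adaptor that sends Cdt1 to destruction on PCNA-bound chromatin, had 2878 and 73.5 in the PBS pair against 214 and 194 in the G-CSF pair. Its PBS replicate 2 value lay below the background of that array. Skp2, another ligase subunit for Cdt1, had 2340 and 416 in the PBS pair against 466 and 518 in the G-CSF pair. Gmnn, geminin, binds and blocks Cdt1. It was picked after its values were seen, and it had 9073 and 1795 in the PBS pair against 2720 and 3260 in the G-CSF pair, the same order of arrays as Cdt1. Cul4b had 2894 and 1029 in the PBS pair against 1281 and 1359 in the G-CSF pair, and Mcmbp, a binding partner of the rings, 1234 and 873 in the PBS pair against 911 and 669 in the G-CSF pair.

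Helicase activation factors turn the loaded rings into a moving helicase, and 11 of 14 were called lower against PBS replicate 1 with 0 called against PBS replicate 2 (medians −1.83 and 0.27). Gins1 had 2568 and 369 in the PBS pair against 408 and 499 in the G-CSF pair, and Dbf4, the activator of the Cdc7 kinase, 2613 and 620 in the PBS pair against 637 and 766 in the G-CSF pair. Ticrr, which recruits Cdc45, had 364 in PBS replicate 1 and 28.2 to 31.5 elsewhere, where it was below background. Gins4 varied little, at 881 and 533 in the PBS pair against 468 and 518 in the G-CSF pair.

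Among polymerases and primase, 7 of 12 were called lower against PBS replicate 1 and 0 were called against PBS replicate 2 (medians −1.30 and 0.34). Pold1, the catalytic subunit of the lagging strand polymerase, had 2665 and 446 in the PBS pair against 562 and 602 in the G-CSF pair. Pole, the leading strand counterpart, had 1173 and 195 in the PBS pair against 206 and 288 in the G-CSF pair. Pold4, an accessory subunit, ran the other way, at 257 and 432 in the PBS pair against 518 and 506 in the G-CSF pair, and was called higher against PBS replicate 1. Pole3 had 1352 and 987 in the PBS pair against 672 and 999 in the G-CSF pair.

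Clamp loading and lagging strand genes had medians of −1.46 and 0.47 over 14 genes, with 11 called lower against PBS replicate 1 and 0 called against PBS replicate 2. Dscc1, part of a loader of PCNA, had 1425 and 40.4 in the PBS pair against 71.8 and 102 in the G-CSF pair. Its values in PBS replicate 2 and G-CSF replicate 1 lay below the background of those arrays. Fen1, the flap nuclease of Okazaki fragments, went against its list with 16390 and 35491 in the PBS pair against 35454 and 36461 in the G-CSF pair. Its difference from PBS replicate 1 was 1.13. The probe set that represents Fen1 ends in _x_at, an ending left out with specific probe sets only. No other Fen1 probe set is given here. Rfc3 had 346 and 90.2 in the PBS pair against 40.6 and 109 in the G-CSF pair, and Rnaseh2a 585 and 552 in the PBS pair against 353 and 440 in the G-CSF pair. Rfc3 too was below background in PBS replicate 2 and G-CSF replicate 1. The 3 fork protection genes were all called lower against PBS replicate 1 and not against PBS replicate 2 (medians −2.21 and 0.76). Timeless had 2255 and 235 in the PBS pair against 286 and 344 in the G-CSF pair. Its partner Tipin had 3477 and 395 in the PBS pair against 602 and 888 in the G-CSF pair, and Clspn, claspin, 1481 and 190 in the PBS pair against 376 and 300 in the G-CSF pair.

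Nucleotide supply genes had medians of −1.40 and 0.45 over 6 genes, 4 of them called lower against PBS replicate 1. Rrm1, the large subunit that pairs with Rrm2, had 6030 and 681 in the PBS pair against 925 and 1266 in the G-CSF pair. Its difference from PBS replicate 2 was 0.65 ± 0.26, beside 1.32 for Rrm2, and this contrast was not tested. Dut, the dUTPase, had 18346 and 708 in the PBS pair against 901 and 1143 in the G-CSF pair, and Tk1, thymidine kinase, 972 and 197 in the PBS pair against 235 and 305 in the G-CSF pair. Samhd1, which breaks down deoxynucleotides, ran the other way at 10063 and 17477 in the PBS pair against 16767 and 13485 in the G-CSF pair. Dck, deoxycytidine kinase, was picked after its values were seen, for its call against PBS replicate 2, where its difference was 0.90.

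Chromatin assembly genes were all called lower against PBS replicate 1 (6 of 6, median −1.72) and 0 of 6 were called against PBS replicate 2 (median 0.78). All 6 followed the full order of arrays seen in 8 of the members. Uhrf1, which brings the methyltransferase to new DNA, had 4386 and 257 in the PBS pair against 413 and 462 in the G-CSF pair. Slbp, the histone mRNA binding protein, had 5622 and 1375 in the PBS pair against 2007 and 2164 in the G-CSF pair, and Chaf1b, a histone chaperone, 849 and 133 in the PBS pair against 214 and 263 in the G-CSF pair.

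E2F and RB family genes held most of the pathway calls against PBS replicate 2, apart from mitosis. Of 13 tested, 4 were called higher with G-CSF against that array and 7 lower against PBS replicate 1 (medians 0.32 and −0.88). The 4 were E2f2, E2f7, E2f8 and Rbl1, of which E2f8 and Rbl1 were picked for this call. E2f2, an activator, had 879 and 211 in the PBS pair against 950 and 710 in the G-CSF pair, so the G-CSF arrays were near PBS replicate 1, unlike any member. E2f7, a repressor, had 149 and 85.6 in the PBS pair against 301 and 292 in the G-CSF pair. The PBS replicate 2 value of E2f7 lay below the background of that array (94.6). E2f6, another repressor, had 708 and 478 in the PBS pair against 296 and 301 in the G-CSF pair. E2f3 had 1668 and 380 in the PBS pair against 361 and 489 in the G-CSF pair.

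Of 9 G1/S cyclins and kinases, 6 were called lower and 1 higher against PBS replicate 1, and 0 were called against PBS replicate 2 (medians −0.93 and 0.43). Cdk2, the S phase kinase, had 1764 and 449 in the PBS pair against 789 and 553 in the G-CSF pair, and Cdk4 had 6780 and 1620 in the PBS pair against 1351 and 1947 in the G-CSF pair. Ccnd2, cyclin D2, was the gene called higher, at 1020 and 1755 in the PBS pair against 1791 and 2701 in the G-CSF pair, and Ccnd1 had 1798 and 3741 in the PBS pair against 2375 and 4209 in the G-CSF pair. Of 6 CDK inhibitors, 0 were called lower against PBS replicate 1, 1 was called higher and 1 had PBS replicate 1 as the highest array, where 15.9%, 22.6% and 33.7% of all genes did so. The 1 called higher was Cdkn1a, which encodes p21, at 1154 and 3123 in the PBS pair against 4455 and 2620 in the G-CSF pair. Cdkn1b had 1061 and 795 in the PBS pair against 1224 and 1308 in the G-CSF pair, Cdkn1c 138 and 378 in the PBS pair against 309 and 260 in the G-CSF pair, and Cdkn2b 425 and 328 in the PBS pair against 562 and 692 in the G-CSF pair.

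The MCM paralogs Mcm8 and Mcm9 lie outside the replicative ring. Mcm8, which acts in repair, had 343 and 111 in the PBS pair against 99.7 and 164 in the G-CSF pair. Its partner Mcm9 had 253 and 108 in the PBS pair against 169 and 180 in the G-CSF pair. Their median differences were −0.88 and 0.38, against −2.65 and 0.92 for the 6 ring subunits, without a test of the contrast. Of these 2 paralogs 1 was called lower against PBS replicate 1, and 0 were called against PBS replicate 2.

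**Figure D4:**
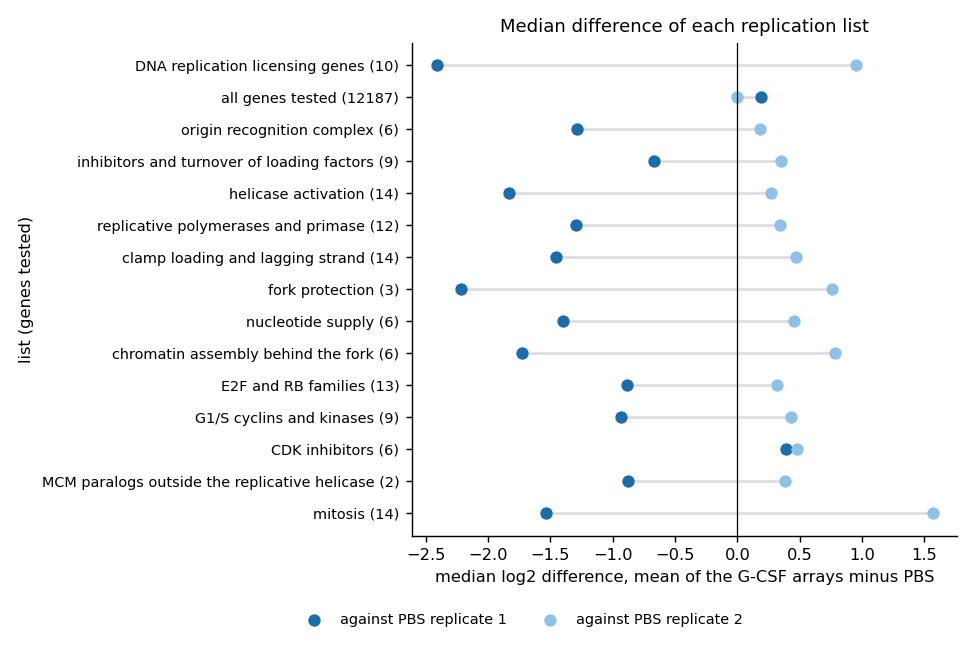
Median difference of the mean of the G-CSF arrays from PBS replicate 1 (dark blue) and PBS replicate 2 (light blue), log2 scale, for the licensing genes, all genes tested and each replication list, with the number of genes tested in brackets. The licensing genes reach −2.41 and 0.95, the mitosis list −1.53 and 1.57, and CDK inhibitors lie above 0 on both sides.

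Mitosis genes act after replication. Of 14 tested, 11 were called higher with G-CSF against PBS replicate 2 and all 14 lower against PBS replicate 1 (medians 1.57 and −1.53). Thus the G-CSF arrays lay about midway between the PBS arrays for mitosis genes, and nearer PBS replicate 2 for licensing genes, and this contrast was not tested. Ccna2, cyclin A2, had 3148 and 215 in the PBS pair against 1169 and 1471 in the G-CSF pair, and Ccnb2 had 2689 and 414 in the PBS pair against 1238 and 1693 in the G-CSF pair. Cdk1, their kinase, had 2871 and 718 in the PBS pair against 888 and 1165 in the G-CSF pair. Kif11, a spindle motor, had 1196 and 123 in the PBS pair against 214 and 210 in the G-CSF pair, and neither it nor Cdk1 was called against PBS replicate 2. The unadjusted p over all 4 arrays was below 0.05 for 0 of the 14.

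The genes whose pattern over the 4 arrays was most like the members were sought by distance. Centred on each gene's mean, the mean member profile stood at 2.04 for PBS replicate 1, −1.24 for PBS replicate 2, −0.50 for G-CSF replicate 1 and −0.30 for the other G-CSF array. The 5 nearest genes outside the members were Dnmt1, Wdhd1, Atad5, Esco2 and Ncapg, at Euclidean distances of 0.068 to 0.18 on the log2 scale. Dnmt1 had 15341 and 1622 in the PBS pair against 2631 and 3189 in the G-CSF pair. Esco2 lay low, with 588 in PBS replicate 1 and 44.4 to 86.3 elsewhere. The farthest member was Mcm2 by its representing probe set (distance 1.59), and 1227 other genes lay nearer to the profile than it did. That count is set by the exception among the members. It does not show how common likeness is at the distances of the 5 nearest genes.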

How the data were processed

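Total RNA (40 ng per sample) was amplified, labelled and hybridised to 1 array per sample, per the labels' protocols. The authors deposited linear intensity values, MAS5 signals per probe set (per the submitters' processing notes; version not given in the sources used here), and the mean after trimming 2% at each end was 500.003 on all 4 arrays, so no rescaling was done. Platform symbols were updated by Entrez ID to RefSeq. Of 45101 probe sets, 64 controls, 932 with several genes and 9160 with none were left out.

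A pseudocount of 23 (the median of all signals, 92.9, over 4, rounded) was added before log2. Genes with a mean signal above 95.0 were tested in R 4.3.3 by limma 3.58.1 (lmFit, eBayes with trend, two-sided, Benjamini-Hochberg at 0.05; 2 residual and 3.13 prior degrees of freedom), on all 4 arrays and without each PBS array. The procedure was tested on simulated data. The members and gene lists were chosen with earlier results of these data known. Named were all members, up to 4 genes per replication list by smallest p, up to 3 per marker list by signal, and the 5 nearest genes; others are said to be picked later. List genes below the filter or without a single-gene probe set were not tested. Protein sequences were not used here. Alternatives covered scaling, pseudocount, filter, variance model, probe set choice, the replicate number as a block, and each array left out. Figures used Python 3.11.15 and matplotlib 3.10.9.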

Additional observations from a re-analysis of the deposited data

How the results depend on the processing

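No member was called over all 4 arrays in any setting that kept all arrays. Each of the 118 member differences in those settings kept its sign and its side of the threshold. Changing only the filter, the variance model, the array weights or the block left each member difference as it was, so its sign could not turn there. Leaving out each array in turn gave 6 to 4689 genes called over all genes, 0 to 10 members called, and a median member difference of −2.41 to 0.95. The lower ends of the differences come without PBS replicate 2 and the upper ends without PBS replicate 1, which turned the sign: Mcm3 −2.74 to 0.62, Mcm4 −2.20 to 0.96, Mcm5 −2.73 to 1.57, Mcm6 −2.71 to 0.87, Mcm7 −2.23 to 0.97, Cdc6 −3.07 to 1.43, Cdt1 −2.08 to 0.94, Pcna −2.10 to 0.64 and Rrm2 −1.92 to 1.32. Mcm2 stayed below 0. Genes called over all genes were 33 with array weights, 11 with specific probe sets only and 92 with the replicate number as a block, against 0. The labels do not say that equal numbers share an animal, so the block has no stated basis in the design. It called 0 members. Deviations of same-numbered arrays correlated at −0.038 over genes, a value that cannot show whether arrays share an animal. With the mean of all probe sets the member medians were −2.18 and 0.62 against PBS replicates 1 and 2, and all 10 members, Mcm2 too, were above PBS replicate 2. Members called higher against PBS replicate 2 alone, a count whose alternatives were chosen after seeing the data, were 4, and 0 with no filter, 2 with the 75th percentile filter, 0 without trend, 1 with the mean of all probe sets and 0 with specific probe sets only (8 members measured); the cause was not tested. All members measured were called lower against PBS replicate 1 in each of these. The precision is limited by 2 arrays per group.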
